A study of Mus musculus with 2 samples.

Results

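The forkhead (Fox) and Sox genes encode transcription factors that direct the formation of organs and cell types in the embryo. A Fox protein binds DNA through a forkhead domain, a winged-helix fold, and FOXA proteins can bind sites on nucleosomes, where a linker histone also sits. A Sox protein binds through a high mobility group (HMG) box, which enters the minor groove and bends the DNA. H1t is the linker histone variant of male germ cells and replaces much of the somatic linker histone from the spermatocyte stage onward. Most genes of both families belong to somatic programmes that germ cells do not run, while some, such as Sox30, act in the male germ line.

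The members were the protein-coding genes on chromosomes 1 to 19 in the GENCODE M21 annotation of GRCm38 (mm10) whose symbol is Fox with a letter and a number, or Sox with a number, other than the pair that the rule leaves out. There were 57 of them among 20807 coding genes on these chromosomes, 41 Fox and 16 Sox. The series has 1 H1t immunoprecipitate and 1 input of testicular germ cells, taken from ICR mice, an outbred stock, at 6 weeks of age. The peak list of the H1t library was used, and the input was not analysed here. The labels give neither the number of mice nor the stages of the cells, and a peak list holds no marker by which the cell type could be checked. Strong signal in few cells and weak signal in many cannot be told apart in such a mixture. With 1 library there is no replicate, so values are given as descriptions without a test.

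The list held 76546 peaks with a median width of 700 bp and a median score of 74.04. Scores, the authors' own peak values, lie between 50 and 3100 and were used to rank peaks within this list. A start-site peak is one whose midpoint lies within 1 kb of the 5′ end of the gene, and a coding-sequence peak is one whose midpoint lies in annotated coding sequence of the gene. The depth of the library is unknown, and so is the background of weak peaks.

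H1t peaks lay over the coding sequence of most Fox and Sox genes. A coding-sequence peak was found at 27 of 41 Fox genes (65.9%) and at 9 of 16 Sox genes (56.25%), against 19.0% of all coding genes. A start-site peak was found at 18 Fox genes (43.9%) and 8 Sox genes (50%), against 24.2% of all coding genes. With a window of 500 bp in place of 1 kb, the Fox share was 24.4% against 19.2% of all coding genes. Within the gene body or 10 kb of it, 37 Fox genes (90.2%) and 15 Sox genes (93.75%) had a peak, against 69.9% of all coding genes. Peaks covered at least 50% of the coding sequence of 16 Fox genes (39.0%) and 6 Sox genes (37.5%), against 4.67% of all coding genes. The whole coding sequence was covered at 6 members, which were Foxa1, Foxb1, Foxc2, Sox14, Sox18 and Sox21, against 0.706% of all coding genes.

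**Figure D1:**
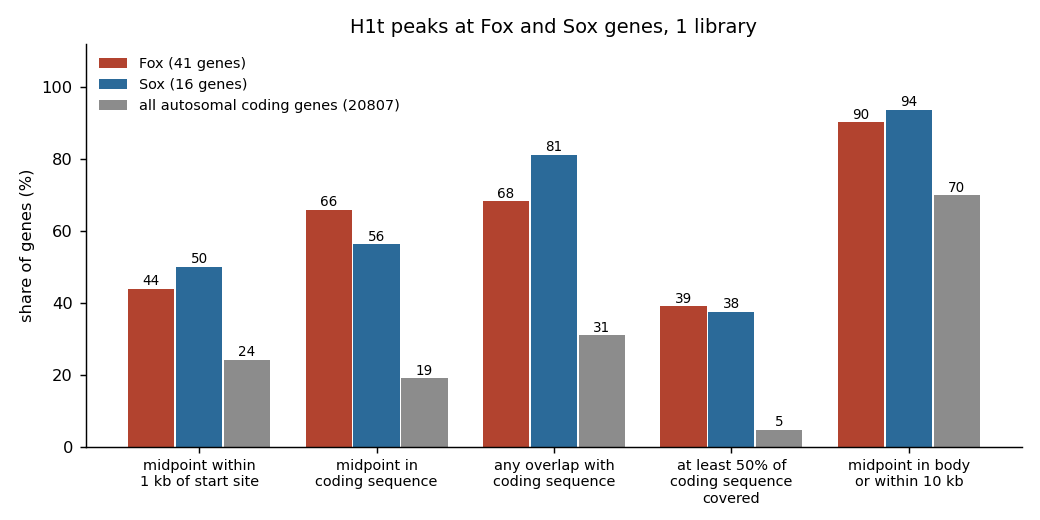
Share of genes (%) that meet each of 5 rules for an H1t peak, in Fox genes, Sox genes and all coding genes of chromosomes 1 to 19; bars are shares in 1 library and have no error. Both families stand above all coding genes under each rule, and their order changes between midpoints in coding sequence (65.9% for Fox, 56.25% for Sox) and any overlap (68.3% for Fox, 81.25% for Sox).

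The families differed in which rule favoured them. With any overlap in place of the midpoint, 28 Fox genes (68.3%) and 13 Sox genes (81.25%) had a peak over coding sequence, against 31.0% of all coding genes, so the order of the families was turned round. The 4 Sox genes that this added were Sox1, Sox13, Sox17 and Sox21, whose peaks had their midpoints in non-coding exon sequence or, for Sox13, in an intron. Foxk2 was the single Fox gene added. Coding-sequence peaks of the Sox genes had the higher scores, with a median of 128.62 over 10 peaks, against 70.2 over 32 Fox peaks and 67.08 over the 5125 coding-sequence peaks of all coding genes. The Sox peaks were also wider, with a median of 932 bp against 708.5 bp for Fox peaks. Score and width went together over the 42 coding-sequence peaks of both families (Spearman rho 0.94), which come from 1 library. A coding-sequence peak with a score of at least 100 was present at 8 Fox genes (19.5%) and 6 Sox genes (37.5%), against 4.09% of all coding genes. For a score of at least 200 these were 4 Fox genes and 1 Sox gene, against 0.365% of all coding genes.

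Coding sequence is shown first for the 3 Fox genes (Foxc2, Foxf1, Foxd1) and the 2 Sox genes (Sox14, Sox2) with the highest coding-sequence scores of their family, and then for Foxd3 and Foxj3, which had no peak over coding sequence. Each run has 120 bases on the coding strand, read from the GENCODE M21 transcripts (GRCm38). It is centred on the peak's midpoint, or on the middle of the longest coding exon where there was no peak. The Foxd1 run starts at its first coding base, since the midpoint is close to it. Capitals mark CG dinucleotides.
Foxc2 (chr8:121117383-121117502, plus strand): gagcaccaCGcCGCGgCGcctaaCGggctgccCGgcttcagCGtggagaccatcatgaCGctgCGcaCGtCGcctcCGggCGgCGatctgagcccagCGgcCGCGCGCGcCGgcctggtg
Foxf1 (chr8:121084762-121084881, plus strand): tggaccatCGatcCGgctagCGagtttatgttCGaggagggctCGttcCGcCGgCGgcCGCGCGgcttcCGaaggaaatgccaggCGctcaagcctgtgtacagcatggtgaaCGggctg
Foxd1 (chr13:98354620-98354739, plus strand): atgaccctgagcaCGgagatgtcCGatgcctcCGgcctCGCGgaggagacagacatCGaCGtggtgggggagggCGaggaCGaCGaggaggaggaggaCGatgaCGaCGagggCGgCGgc
Sox14 (chr9:99875396-99875515, minus strand): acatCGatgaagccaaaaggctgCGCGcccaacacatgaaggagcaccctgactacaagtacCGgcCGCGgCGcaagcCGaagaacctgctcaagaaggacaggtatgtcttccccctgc
Sox2 (chr3:34650675-34650794, plus strand): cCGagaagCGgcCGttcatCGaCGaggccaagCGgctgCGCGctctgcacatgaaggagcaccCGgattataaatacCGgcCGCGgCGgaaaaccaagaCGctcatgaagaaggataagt
Foxd3 (chr4:99657268-99657387, plus strand): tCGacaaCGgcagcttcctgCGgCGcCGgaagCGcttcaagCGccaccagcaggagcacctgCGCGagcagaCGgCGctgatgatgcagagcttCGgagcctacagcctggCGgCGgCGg
Foxj3 (chr4:119620081-119620200, plus strand): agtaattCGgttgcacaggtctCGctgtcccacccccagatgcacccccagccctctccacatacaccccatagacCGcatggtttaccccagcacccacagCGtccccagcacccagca

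Among these runs the Foxc2 one held 20 CG dinucleotides at 75.8% GC. The Foxd3 run held 15 at 69.2% GC, which is in the range of the runs under peaks, although the gene had no peak. The Sox14 run, under a peak with a score of 201.48, held 8 at 58.3% GC. The Foxj3 run held 4 at 61.7%.

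The 3 Fox genes with the highest coding-sequence scores, Foxc2, Foxf1 and Foxd1, are factors of mesoderm and mesenchyme. Foxc2, a factor of lymphatic vessel and somite formation whose coding sequence is 1 exon, had a peak of 1680 bp (chr8:121116603-121118282) with a score of 253.16 that covered all of its coding sequence, and 24 of the 3949 coding genes with a coding-sequence peak had a higher score. Its near relative Foxc1, a factor of the eye and skeleton, had a weaker coding-sequence peak (score 67.08) and 4 others within 10 kb. These went up to 144.95, in the exon beyond the coding sequence. Together with a start-site peak of 71.5, the coding-sequence peak covered 52.9% of the Foxc1 coding sequence. Foxf1, a factor of the mesenchyme of gut and lung, had a peak of 1576 bp (chr8:121084034-121085609) with a score of 245.59 over 86.1% of its coding sequence. Foxf2, which acts in the same tissues, had a score of 86.22 and 50.8% covered. Foxd1, a marker of the kidney stroma, had a score of 221.32 (chr13:98353866-98355406). Foxl1, of the gut mesenchyme, and Foxq1 had lower scores of 69.16 and 66.5. Foxs1 was the one gene of this group without a peak over coding sequence, although 4 peaks lay in its flanks.

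Pairs of related genes differed in this manner among the other tissue factors too. In the FOXA group, pioneer factors of the liver and other endoderm, Foxa1 was covered throughout by 2 peaks together. One was 1729 bp wide (score 218.5), and the other was a weak peak of 594 bp (54.67) with its midpoint in an intron. Foxa2 had 2 coding-sequence peaks (56.71 and 58.52) over 71.6% and Foxa3 had none. Foxb1, a factor of the developing brain, was covered throughout (111.21), while its relative Foxb2 had none, with 67.4% GC in its coding sequence. Foxd4 had a score of 193.53 over 93.8%. Foxd2 had a coding-sequence peak of 97.36 and a start-site peak of 120.28, together over 66.6%. Foxd3, a neural crest and pluripotency factor, had 0 peaks within 10 kb and its nearest peak 75357 bp downstream of the start site. Foxe1, needed for the thyroid, had a score of 62.3, while Foxe3, needed for the lens, had 0 peaks within 10 kb. Foxl2, which maintains the granulosa cells of the ovary, had 136.82 over 73.0%. Of the FOXI genes of inner ear and ectoderm, Foxi3 had 2 coding-sequence peaks (62.99 and 50.5), together over 71.8%. Foxi2 had 60.76 and Foxi1 had 0 peaks within 10 kb.

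Among the FOXO genes, which act downstream of insulin signalling, Foxo6 had a score of 125.43 over 55.7% and Foxo1 90.17 over 31.7%. Foxo3 had 2 coding-sequence peaks (80.87 and 55.8), together over 54.0%. Foxk1 had 2 coding-sequence peaks (52.77 and 86.39) and Foxk2 none. Foxn1, the factor of the thymus epithelium, had 2 (68.54 and 71.81), and Foxn4 1 (62.46), while Foxn3 had 36.6% of its coding sequence covered. Foxp4 had 61.84, while Foxp1 and Foxp2, known for roles in brain and lung, had none. Foxj1, the switch for motile cilia, had a coding-sequence peak of 71.29 and a start-site peak of 55.8, together over 78.5%. It had 6 peaks within 10 kb, 3 of them in the body of the neighbouring gene Rnf157. Foxh1, a partner of SMAD proteins in Nodal signalling, Foxm1, a regulator of cell division, and Foxr1 had no peak over coding sequence. Foxm1 had 0 peaks within 10 kb and its nearest at -49330 bp from the start site, that is, upstream.

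The 5 highest coding-sequence scores of Sox genes were at members of the B, C and F groups. In the B groups, which hold factors of neural progenitors, Sox2, also a pluripotency factor, had a peak of 1154 bp (chr3:34650158-34651311) with a score of 179.47 over 93.6% of its coding sequence. Sox14 had a peak of 1475 bp (chr9:99874718-99876192) with 201.48 over the whole coding sequence. Sox21 lay under the widest of these, 2627 bp (chr14:118234667-118237293) with a score of 298.32, whose midpoint was in the exon but outside the coding part. Sox1 was covered over 27.8% by a peak of 60.83. These 4 genes have 1 coding exon each and differed in score nonetheless.

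In the C group, Sox11, a factor of neurons and mesenchyme, had a score of 152.29 over 72.2%, while Sox4 (55.63) and Sox12 (55.1) had weak peaks. In the F group, factors of endothelium and endoderm, Sox18 had 160.68 over the whole coding sequence. Sox7 had 2 coding-sequence peaks (160.99 and 52.44), together over 66.2%. Sox17 had a peak of 67.69 over 19.9%, with its midpoint in non-coding exon sequence. Sox10, the factor of neural crest and Schwann cells, had 89.67 near the end of its coding sequence. In the D group of long genes, Sox5 and Sox6 had no peak over coding sequence and Sox13 had 10.8% covered. Sox15 had 0 peaks within 10 kb, and its nearest lay at -22032 bp from the start site.

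Peak edges and domain signatures were compared along the coding sequence. A short signature of the forkhead domain (tryptophan; glutamine, lysine or arginine; asparagine or serine; serine; leucine, isoleucine or valine; arginine; histidine) was found in the translated coding sequence of 36 of 41 Fox genes. A signature of the HMG box (arginine, proline, methionine, asparagine, alanine, phenylalanine, then methionine or isoleucine, valine or leucine, and tryptophan or phenylalanine) was found in 16 of 16 Sox genes. Among members with a signature and a peak over coding sequence, the peak covered every base of the signature in 11 of 27 Fox genes (40.7%) and 6 of 13 Sox genes (46.2%). On average 57.3% of the coding sequence was covered in those Fox genes and 57.2% in those Sox genes. In Foxl2 and Foxe1 the peak began beyond the signature, and in Sox30 it ended before it.

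**Figure D2:**
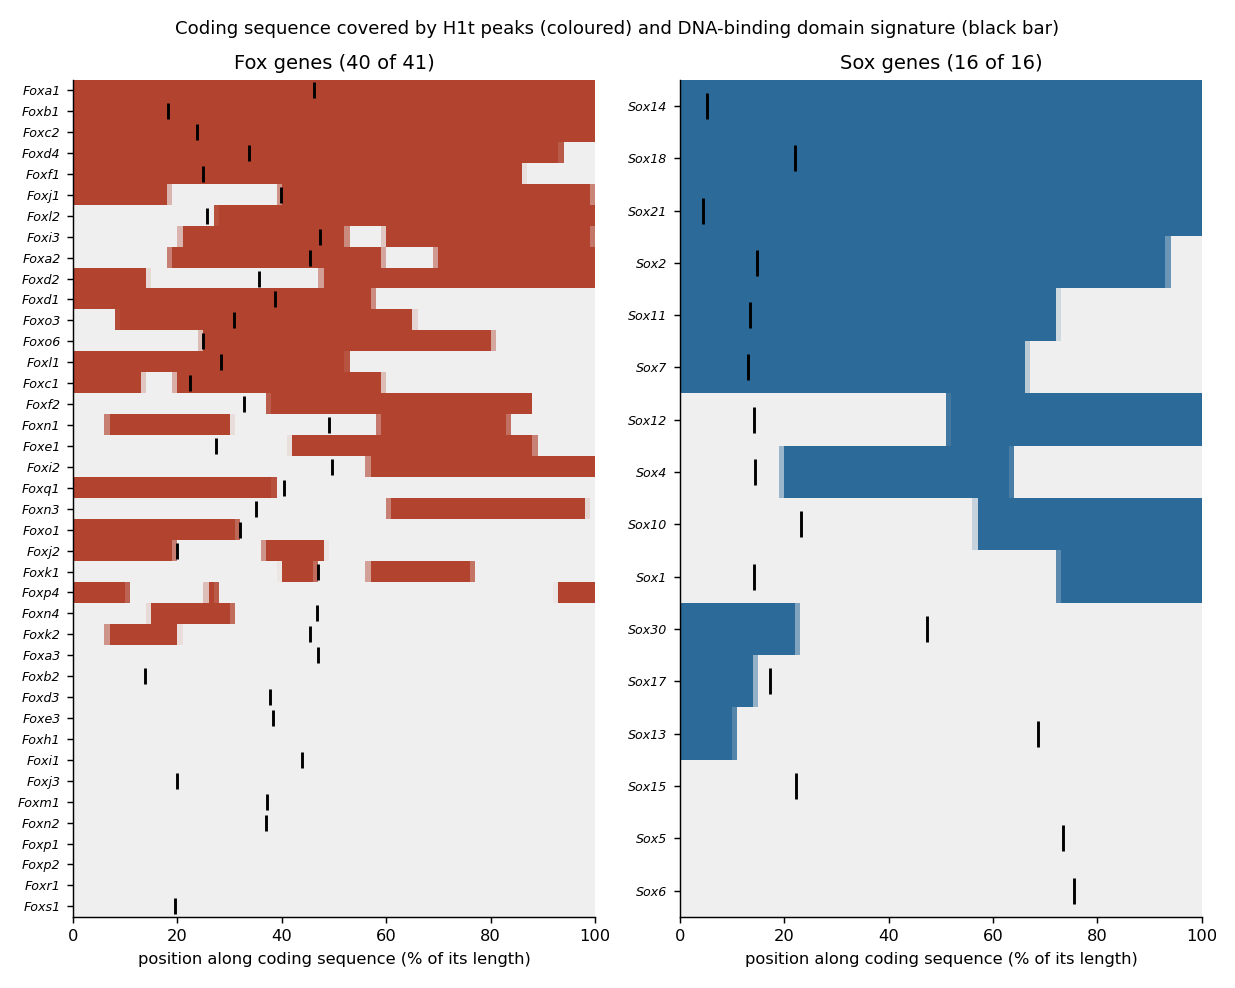
Coverage of the longest annotated coding sequence by H1t peaks along its length (%), 1 row per gene, Fox genes on the left (1 is not shown) and Sox genes on the right, sorted by covered share; colour marks covered bases and the black bar the DNA-binding domain signature. Rows run between full coverage (Foxa1, Foxb1, Foxc2, Sox14, Sox18, Sox21) and none, and the signature lies inside coverage in 11 of 27 Fox and 6 of 13 Sox genes.

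GC content was higher in members with a coding-sequence peak than in those without. The 27 Fox genes with one had a median coding GC content of 65.1% against 58.1% in the 14 without, and the 9 Sox genes with one had 66.1% against 60.6% in the 7 without. The ratio of observed to expected CG dinucleotides was 0.799 against 0.408 in Fox genes and 0.860 against 0.477 in Sox genes. Over the members, GC content and covered share had a Spearman rho of 0.50 in 41 Fox genes and 0.54 in 16 Sox genes, and these points share 1 library. Both families are rich in GC, with medians of 63.9% (Fox) and 64.7% (Sox) against 52.2% for all coding genes, and 33 Fox and 14 Sox genes fell in the top of 5 equal classes of coding genes by GC content (58.1% or more).

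In that top class, 26 of 33 Fox genes (78.8%) and 9 of 14 Sox genes (64.3%) had a coding-sequence peak, against 48.7% of all 4162 coding genes in it. For start-site peaks the gap was smaller, with 45.5% of these Fox genes and 50% of these Sox genes against 36.4%. At least 50% of the coding sequence was covered in 46.8% of the 47 members of this class, against 19.5% of all its coding genes. A peak within 10 kb was found at 93.6% of these members against 86.0%. At 60 to 65% GC, 12 of 15 members (80%) had a coding-sequence peak against 53.2% of all coding genes, and at 65 to 70% 12 of 14 (85.7%) against 50.9%. At 70% or more it was 7 of 11 (63.6%) against 39.5%, and at 50 to 55% 0 of 6 against 13.4%. Start-site peaks at 70% or more went the other way, with 3 of 11 members (27.3%) against 43.9% of all coding genes. The input was not analysed here, so the part of GC content in these peaks was not tested.

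**Figure D3:**
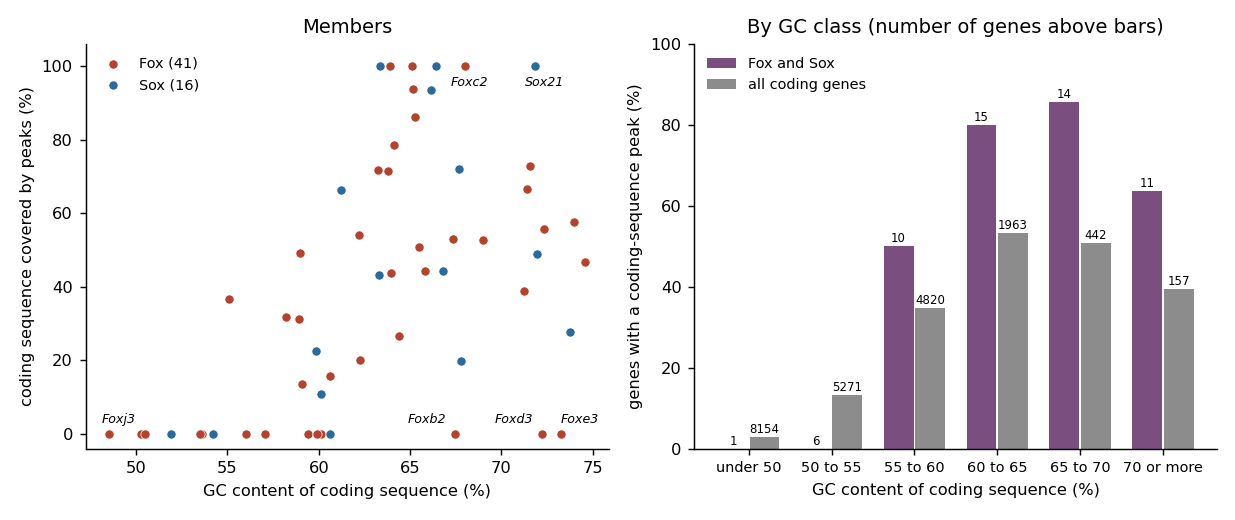
Left, share of coding sequence covered by peaks (%) against its GC content (%) for each of 41 Fox and 16 Sox genes. Right, share of genes with a coding-sequence peak (%) by GC class for members and for all coding genes, with the number of genes above each bar; members stand higher in each class of 55% or more and at 0 in the lower classes, and Foxb2, Foxd3 and Foxe3 are GC-rich genes with 0% covered.

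Within a gene the peak more often lay over the part richer in GC, though less often in members than in coding genes at large. Of 35 members that were covered in part, 24 had a higher GC content in covered than in uncovered coding bases, by a median of 2.93 percentage points over all 35. Among all coding genes covered in part, 5199 of 6173 (84.2%) did, by a median of 5.33 points. In Foxo1 covered bases had 71.8% GC and uncovered ones 51.9%, and in Sox30 they had 78.6% and 54.4%. In Foxd1 the order was the other way, with 71.8% in covered and 76.9% in uncovered bases. The ratio of CG dinucleotides was higher in covered bases in 15 of the 35, a count that was not made for all coding genes.

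A coding sequence in 1 exon was more common among the members, 15 Fox and 7 Sox genes (36.6% and 43.75%) against 15.5% of all coding genes. Of these 22 members, 16 (72.7%) had a coding-sequence peak, against 14.3% of all coding genes of that build, whose median GC content was 48.8% against 68.5% in the members. Of the 35 members with several coding exons, 20 (57.1%) had one, against 19.8% of such coding genes. Coverage of at least 50% was found in 12 of the 22 (54.5%), against 11.65% of all coding genes with 1 coding exon, and in 10 of the 35 (28.6%), against 3.39% of those with several.

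Of 21 Fox peaks within 1 kb of a start site, 15 lay downstream (71.4%), and of 9 Sox peaks 6 did (66.7%), against 78.3% of such peaks at all coding genes. Among the members' downstream peaks, 6 of Fox and 6 of Sox genes were the coding-sequence peaks themselves. In Fox genes 12 coding-sequence peaks lay 1 to 3 kb downstream and 6 within 1 kb, while in Sox genes 2 lay 1 to 3 kb downstream and 6 within 1 kb. All 6 Sox peaks in coding sequence with scores over 100 were within 1 kb, at Sox2, Sox7, Sox11, Sox14, Sox18 and Sox30. A start-site peak without a coding-sequence peak was found at Foxk2 (63.2), Foxn2 (61.32), Foxp1 (73.77), Foxp2 (65.84) and Sox5 (72.67), all genes of at least 5 coding exons, with scores below the list's median of 74.04.

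**Figure D4:**
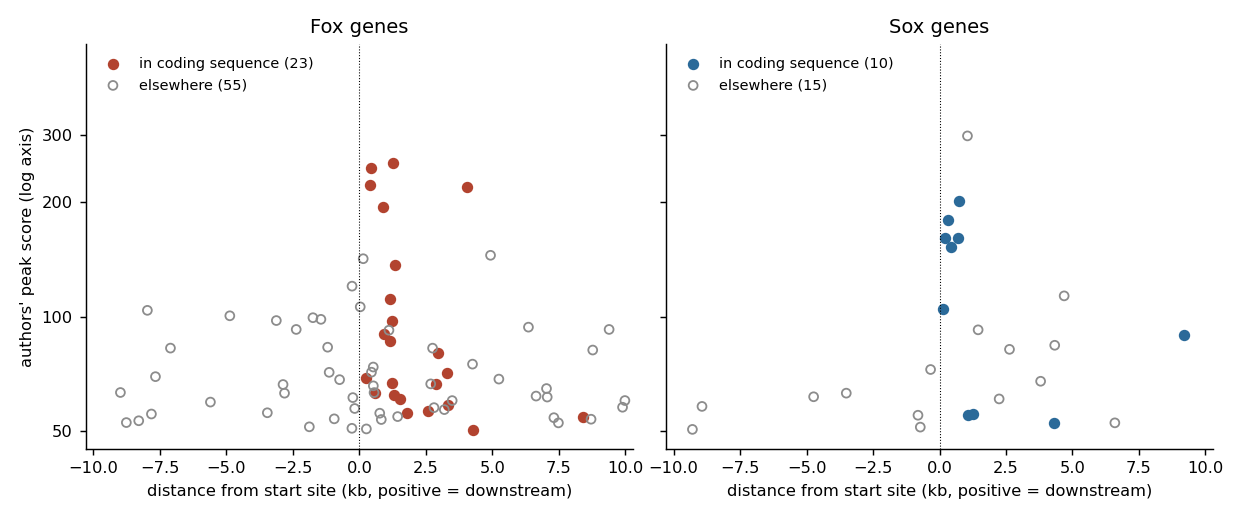
Authors' score (log axis) of each peak whose midpoint lies within 10 kb of a member's start site against its distance from that site (kb), Fox genes on the left and Sox genes on the right; filled points have their midpoint in the member's coding sequence. The 23 filled Fox points and 10 filled Sox points lie downstream, and the highest open point is the Sox21 peak with a score of 298.32.

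Peak density, counted across each gene body with 10 kb flanks, had a median of 6.60 per 100 kb in Fox genes and 6.52 in Sox genes, against 2.60 in all coding genes. Among genes of the top GC class the gap was smaller, with 7.82 in the 47 members there against 5.44 in all coding genes. At 70% GC or more the members had the lower median, 4.30 against 4.71. The densest members were Foxj1 (24.3), Foxc2 (22.0), Foxc1 (19.3), Foxs1 (18.8), Foxf1 (16.8) and Foxk1 (16.1), all Fox genes. Many of these peaks lay in flanks: the gene body held 2 of 6 at Foxj1, 1 of 5 at Foxc2, 0 of 4 at Foxs1 and 1 of 4 at Foxf1. It held 3 of 5 at Foxc1 and 9 of 13 at Foxk1. Without flank peaks in other coding genes the median was 4.40 in Fox genes and 6.52 in Sox genes. In Sox genes the highest values were 13.6 (Sox14), 12.3 (Sox12) and 12.1 (Sox1). The 52 members under 100 kb had a median of 7.0 against 2.80 for coding genes of that size, and the 5 longer ones 1.19 against 1.85.

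Of 127 pairs of a Fox gene and a peak within its 10 kb, 25.2% had the midpoint in the gene's coding sequence, 8.66% in another of its exons and 31.5% in an intron. Of 46 Sox pairs, 21.7% were in coding sequence, 8.70% in another exon and 50% in an intron. Foxp2 had 16 peaks, the most of any member, of which the strongest (263.63) lay in an intron. Foxn3, Foxp1 and Sox30 also had their strongest peak in an intron, with scores of 262.43, 233.74 and 314.6. That of Sox30 was 3057 bp wide (chr11:46011562-46014618).

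Neighbouring members could share peaks. On chromosome 8 Foxf1, Foxc2 and Foxl1 lie in a row, with 28026 bp between Foxf1 and Foxc2 and 9.04 kb between Foxc2 and Foxl1, and the last pair shared 2 peaks within 10 kb. The annotated coding gene Gm20388 spans this row, so that flank peaks there count as lying in another gene. Foxf2 and Foxq1 on chromosome 13 (64.8 kb apart) shared 0 peaks, as did Foxd2 and Foxe3 on chromosome 4 (16.3 kb apart), where Foxd2 had 3 peaks and Foxe3 had 0.

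Of the 8 members with a described role or form in the mouse germ line, 5 had a start-site peak (62.5%) and 4 a coding-sequence peak (50%), against 24.2% and 19.0% of all coding genes. Among all 57 members the shares were 45.6% and 63.2%. The 8 thus stood above the members for start-site peaks and below them for coding-sequence peaks. Their median coding GC content was 58.6% against 63.9% in all members. These differences, in a list of 8 genes, were not tested. Sox30, a factor of spermatid development, had a peak of 852 bp with a score of 104.95 at 113 bp downstream of its start site. Foxo1, a factor of spermatogonial stem cells, had 1 peak within 10 kb (90.17), which lay in its first coding exon. Foxj2 had a start-site peak of 106.13, and Foxo3 had 6 peaks within 10 kb, up to 98.42. Foxj3 had 1 peak, in an intron (107.47), and Sox6 had 7 peaks in introns, up to 156.4. Sox5 had 10 peaks within 10 kb, up to 171.94 in an intron, and Sox17 had 1 (67.69).

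Other gene groups had coding-sequence peaks less often than the 63.2% of the 57 members, a difference that was not tested. Among 20 HMG-box genes that are not Sox, 4 had one (20%), which is near the share of all coding genes, although 11 (55%) had a start-site peak. Their median coding GC content was 52.6%. Among 16 genes that encode partners or regulators of Fox and Sox proteins, 5 had a coding-sequence peak (31.25%), namely Akt1 (137.61), Pou3f2 (88.84), Smad3 (185.72), Tle1 (56.41) and Tle3 (58.12). Among 20 T-box and Gata genes 8 had one (40%), with a median GC content of 60.1%, led by Gata6 (126.94). Among 39 Hox genes 18 had one (46.2%), with a median GC content of 61.4%, and among 358 Zfp genes 58 (16.2%), with 47.3%. By some other measures the Hox genes were near the 57 members or above them. At least 50% of the coding sequence was covered in 35.9% of Hox genes against 38.6% of members. Median peak density was 8.51 per 100 kb in Hox genes against 6.59 in members. Start-site peaks were less frequent in Hox genes, at 35.9% against 45.6%. These differences were not tested either.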

How the data were processed

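Chromatin of mouse spermatogenic cells was fragmented enzymatically and immunoprecipitated with an antibody against H1t, per the labels' protocols. The submitters' processing notes name Bowtie 1.1.2 and the mm10 build. The version and threshold of the peak caller are not stated there; peak names have the form that MACS writes. The deposited list holds a score per peak, which is the authors' value on an unstated scale. Its lowest score is 50.

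Peaks were compared with GENCODE M21 (GRCm38), with positions counted from 1. Coding GC content and signatures came from the transcript with the longest coding sequence. Covered shares per gene and midpoints used all annotated coding sequence. The comparison with signatures and that of covered with uncovered bases in members used the coverage of the longest coding sequence alone. The 2 can differ, as at Foxo3, with 54.0% of all annotated and 57.1% of the longest coding sequence. Peaks planted at known places were all found by the procedure. The members, gene lists and rules were chosen with earlier results of these data known. Named genes were the 10 Fox and 8 Sox genes with the highest coding-sequence scores, those without a peak within 10 kb or with a start-site peak alone, the germ-line list and close neighbours; other members are named to account for the rest, except 1 Fox gene that is counted but not reported here. Alternatives covered score, windows, overlap and annotation. The scripts ran on Biopython 1.88, pandas 2.3.3, numpy 2.4.6, scipy 1.17.1 and matplotlib 3.10.9 under Python 3.11.15.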

Additional observations from a re-analysis of the deposited data

How the results depend on the processing

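Over 46 alternative values of the families' shares and medians, 45 stayed above the value of all coding genes; the exception was the Fox median density at scores of at least 100, which was 0 like that of all coding genes. Of the 46, 29 stayed within the 95% Wilson interval of the main share (for medians, within 1.5 times). This interval treats genes of 1 library as independent and is wider for 16 Sox genes than for 41 Fox genes. A fall of the Sox coding share from 56.25% to 37.5% at scores of at least 100 thus still counted as within it. The count of 29 is therefore no measure of how stable the Sox values are. With peaks above the median score, Fox shares were 17.1% (start site), 34.1% (coding sequence) and 68.3% (10 kb). Those of all coding genes were 11.0%, 8.60% and 43.7%. Median densities were 1.74 (Fox) and 3.38 (Sox) against 0 for all coding genes. With scores of at least 100, Fox shares were 14.6%, 19.5% and 43.9%, against 5.48%, 4.09% and 27.1% of all coding genes. The Sox share within 10 kb was then 56.25%, and median densities were 0 (Fox) and 0.376 (Sox). The Fox start-site share was 24.4% with 500 bp, close to the 19.2% of all coding genes, and 61.0% with 2 kb, against 28.2%. The Sox coding share was 81.25% with any overlap, against 31.0% of all coding genes. In gene bodies alone median densities were 11.8 (Fox) and 18.1 (Sox), against 0 for all coding genes. The Fox coding share was 39.0% where at least 50% had to be covered, against 4.67% of all coding genes. That alternative was chosen after the data were seen. Fox minus Sox differences changed sign for coding shares with any overlap (-13.0 percentage points), peaks above the median score (-9.60) and scores of at least 100 (-18.0). They also did for median densities with peaks above the median score (-1.64), scores of at least 100 (-0.376), gene bodies alone (-6.34), 5 kb flanks (-0.645) and without flank peaks in other coding genes (-2.12); the cause was not tested. The order of the families in coding shares and density is thus not stable. No paired analysis over replicates was possible because there is 1 H1t library. How many weak peaks are background cannot be told here, since the depth is unknown and the input library was not analysed.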

Other observations

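Both families also have genes on X, which the rule left out. Of these 4 genes (Foxo4, Foxp3, Foxr2 and Sox3), 0 had a start-site peak, a coding-sequence peak or any peak within 10 kb. Peaks were scarce at X-linked coding genes in general: of 948, 6 had a start-site peak (0.633%), 1 a coding-sequence peak (0.105%) and 309 a peak within 10 kb (32.6%).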
